A study of Mus musculus with 14 samples.

Results

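The transcription factors that direct red cell, megakaryocyte and mast cell development were followed in progenitors sorted from mice transplanted with leukemic cells. Samples came from mice given vehicle or an inhibitor of mutant IDH1, and from relapse after that inhibitor. The set holds 10 genes chosen by name, Gata1, Gata2, Klf1, Tal1, Gfi1b, Zfpm1, Nfe2, Lmo2, Ldb1 and Bcl11a, out of 52636 gene identifiers in the deposited count table. All 10 passed the filter on low counts and were among the 11994 genes tested. The members and the gene lists used below were chosen with earlier results of these data known. Counts set beside the share of all genes thus describe these genes and do not test them as a set.

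Every mouse had received a transplant of I1DN leukemic cells. The mice were given vehicle for 5 days (n = 3) or 14 days (n = 2), AG120 for 5 days (n = 3) or 14 days (n = 2), or AG120 for 28 days and were sampled once disease had relapsed (n = 4). AG120, also known as ivosidenib, inhibits the mutant form of IDH1 that makes the metabolite 2-hydroxyglutarate. Progenitors that carried cKit on their surface but not CD11b were sorted from each mouse, and each of the 14 libraries was read from the 3′ ends of transcripts with the QuantSeq kit. The labels give neither the alleles of I1DN, nor the dose, nor the age of the mice, nor the time between the end of treatment and relapse. They name no marker that separates transplanted from host cells in the sort.

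GATA1 and GATA2 are zinc finger proteins that bind the same DNA letters. In the textbook account, GATA2 acts in stem and early progenitor cells. GATA1 takes over its sites as cells enter the red cell or megakaryocyte path, a step known as the GATA switch. GATA1 works in a complex with TAL1, LMO2 and LDB1, recruits FOG1 (made by Zfpm1), and shares red cell targets with KLF1, which binds CACCC boxes. GFI1B is a repressor that acts within this programme, NFE2 acts late in megakaryocytes and red cells, and BCL11A represses fetal globin genes.

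Total counts were 4995738 to 8691708 per library. Ribosomal RNA gene models took 50.9% to 74.8% of them, so that the other genes shared 1259982 to 3358874 counts, with the minimum in AG120 day 14 replicate 1. Kit was detected in all 14 libraries, at 33.5 to 37.8 CPM in the 5 vehicle libraries, 23.6 to 33.1 in AG120 day 5, 11.6 in both AG120 day 14 libraries and 18.9 to 52.0 in relapse. Itgam, which codes for CD11b, was also detected in all of them, at 10.6 to 18.02 CPM in vehicle, 2.56 to 8.01 in AG120 and 13.9 to 53.5 in relapse. Here CPM is the count of a gene scaled to a common library size after TMM normalization. "Rose" and "fell" are used for a gene whose adjusted p was under 0.05 in edgeR's quasi-likelihood test over all 11994 genes. Since whole sorted samples were measured, a change in the share of cells of one type and a change in RNA per cell cannot be told apart.

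Promoter windows of 250 bases before a start site were read from RefSeq (GRCm38.p6), which gave 12 windows for 8 of the 10 members. They were searched on both strands for the GATA letters (AGATAA or AGATAG or TGATAA or TGATAG). At least 1 of these was present in 26.5% of all 32851 promoter windows. A match was found in 4 of the 12 windows, those of Klf1, Gfi1b, the upstream start of Tal1 and the most downstream start of Ldb1. The windows of Gata1, Gata2, Zfpm1 and Bcl11a held none of these letters. The CACCC box was searched as the longer pattern CCNCNCCC on both strands. That pattern was present in 45.9% of all windows and in 10 of the 12 member windows. The windows of Klf1 and of the upstream Tal1 start lacked the pattern. The plain letters CACCC, which were not searched, do stand in the Klf1 window and, on the other strand, in that Tal1 window. A match describes letters only. The windows of 5 members are printed 5′ to 3′ on the strand of the gene, because Klf1 and Gfi1b had the largest rises under AG120 at day 5 and hold a match, Tal1 holds one and did not pass, and Gata1 and Gata2 moved in opposite directions without one. Capitals mark GATA letters, and TTATCA and TTATCT are such letters on the other strand. The Klf1 window stops where an annotated exon begins.
Klf1, chr8:84901732-84901927, plus strand: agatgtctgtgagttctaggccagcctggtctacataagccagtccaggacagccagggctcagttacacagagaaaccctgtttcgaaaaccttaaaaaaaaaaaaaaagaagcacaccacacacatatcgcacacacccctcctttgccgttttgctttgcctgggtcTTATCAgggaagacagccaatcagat
Gfi1b, chr2:28621983-28622232, minus strand: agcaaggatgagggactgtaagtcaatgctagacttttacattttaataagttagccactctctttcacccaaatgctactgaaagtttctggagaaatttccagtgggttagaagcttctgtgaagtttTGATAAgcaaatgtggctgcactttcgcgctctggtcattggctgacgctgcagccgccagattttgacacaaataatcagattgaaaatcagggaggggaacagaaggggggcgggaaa
Tal1, chr4:115056176-115056425, plus strand: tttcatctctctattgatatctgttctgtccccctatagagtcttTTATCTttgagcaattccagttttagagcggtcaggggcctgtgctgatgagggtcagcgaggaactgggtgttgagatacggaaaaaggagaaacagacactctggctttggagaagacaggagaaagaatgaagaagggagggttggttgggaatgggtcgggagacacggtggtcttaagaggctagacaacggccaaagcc
Gata1, chrX:7967911-7968160, minus strand: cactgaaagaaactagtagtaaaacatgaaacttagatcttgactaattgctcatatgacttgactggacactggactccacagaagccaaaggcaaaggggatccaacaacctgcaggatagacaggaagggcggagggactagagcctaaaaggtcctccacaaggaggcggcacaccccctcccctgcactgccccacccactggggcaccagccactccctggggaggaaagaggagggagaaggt
Gata2, chr6:88193641-88193890, plus strand: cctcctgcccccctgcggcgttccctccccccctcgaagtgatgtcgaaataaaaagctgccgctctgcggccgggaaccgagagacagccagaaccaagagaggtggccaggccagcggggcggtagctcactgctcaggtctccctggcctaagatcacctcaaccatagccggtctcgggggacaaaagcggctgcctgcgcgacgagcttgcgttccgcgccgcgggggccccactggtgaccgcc
Counted from the RefSeq start site, the first base of the match lay at -80 in Klf1, -120 in Gfi1b and -205 in Tal1.

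The first comparison asks what AG120 did to these factors within 5 days. Of the 10 members, 6 rose (Gata1, Klf1, Gfi1b, Lmo2, Ldb1 and Bcl11a), 2 fell (Gata2 and Nfe2) and 2 did not pass (Tal1 and Zfpm1), against 20.1% of all genes that rose and 19.3% that fell. The median log2 fold change was 0.88 over the members and -0.00087 over all genes tested. The libraries of AG120 and vehicle did not overlap for any of the 10 members, which was also so for 59.9% of all genes.

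At day 14, 6 members again rose, 2 fell and 2 did not pass, but Zfpm1 took the place of Lmo2 among those that rose. Among all genes 16.8% rose and 17.9% fell. The members' median log2 fold change was 1.19, beside -0.0062 over all genes. The 2 AG120 and 2 vehicle libraries did not overlap for any of the 10 members, as for 70.5% of all genes.

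**Figure D1:**
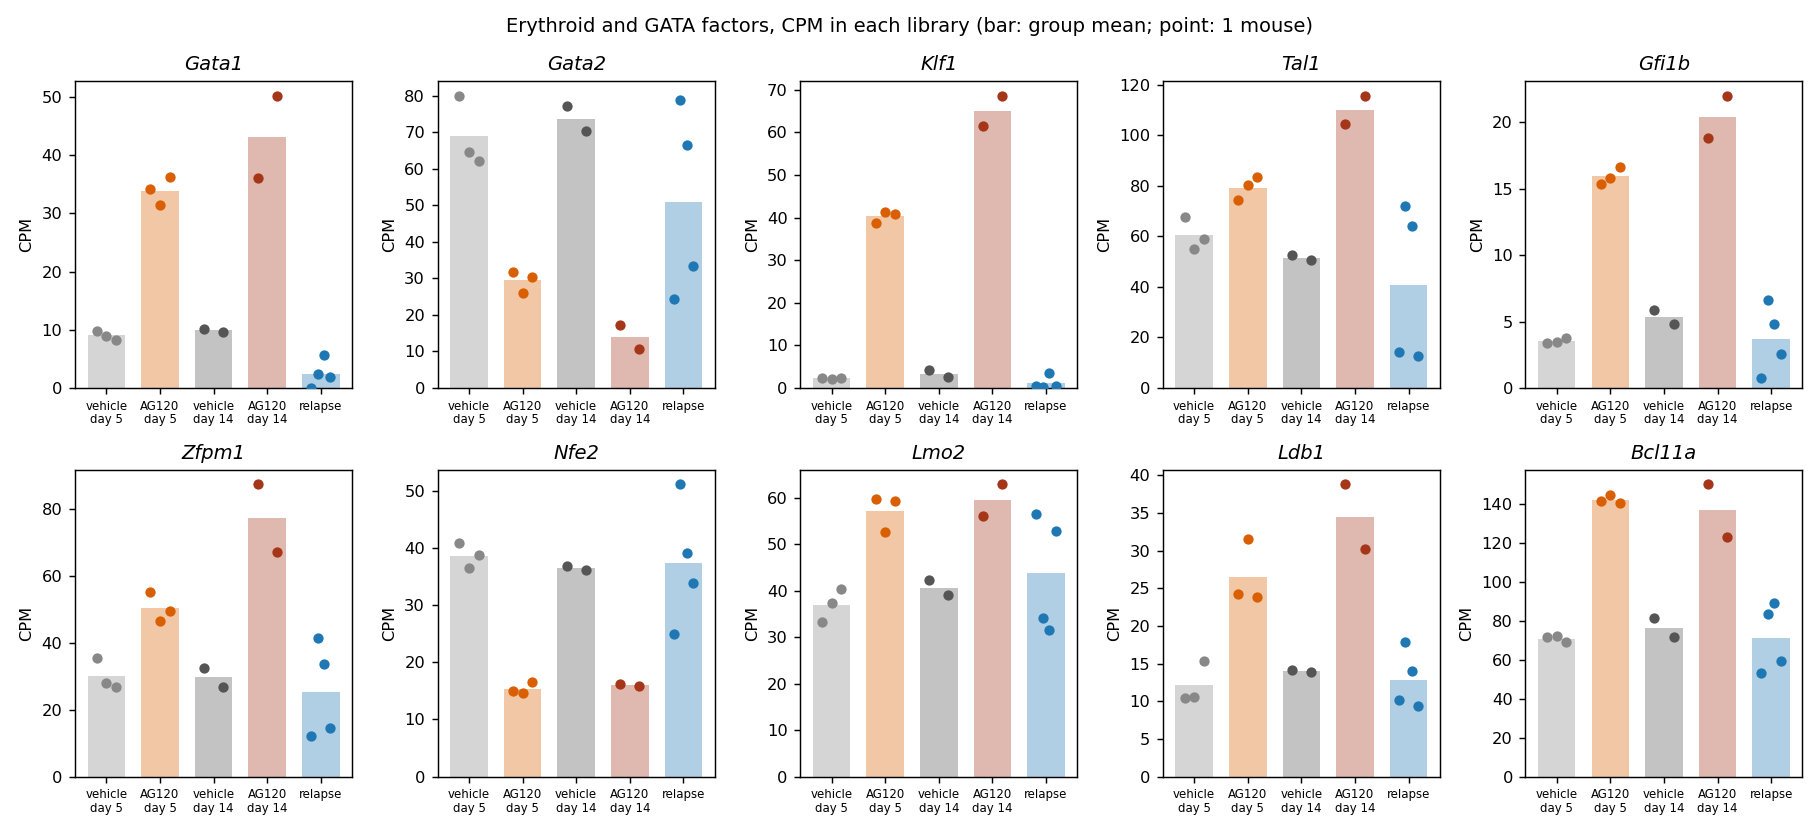
CPM of the 10 members (y axes, linear from 0) in the 5 groups; each point is the library of 1 mouse and each bar a group mean. In AG120, 8 members lie above and 2, Gata2 and Nfe2, below every vehicle library of the same day, and the relapse points spread widely for Tal1, Gata2 and Zfpm1.

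The GATA factors moved in opposite directions. Gata1 (chrX:7959260-7978071, GRCm38, minus strand) is the master regulator of red cell and megakaryocyte maturation. It was measured at 9.82, 8.95 and 8.25 CPM in the vehicle libraries of day 5 and at 34.1, 31.4 and 36.3 CPM in those of AG120. Its log2 fold change at day 5 was 1.92 ± 0.41 (SE; adjusted p = 0.00296), a 3.77-fold rise. At day 14 it was at 10.1 and 9.67 CPM in vehicle and at 36.1 and 50.2 CPM in AG120, a log2 fold change of 2.13 ± 0.51 (adjusted p = 0.00659). Every AG120 library was thus above every vehicle library on both days. At day 14 the adjusted p was 0.0595 when AG120 replicate 2 was left out and 0.0555 when vehicle replicate 2 was left out, with log2 fold changes of 1.86 and 2.1.

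Gata2 (chr6:88193891-88207032, plus strand), the GATA factor of stem cells and early progenitors, was at 80.0, 64.7 and 62.0 CPM in vehicle day 5 and at 31.7, 26.0 and 30.5 CPM in AG120 day 5. It fell by 1.23 ± 0.36 on the log2 scale (adjusted p = 0.0184). It no longer passed when vehicle day 5 replicate 1 (adjusted p = 0.0566) or AG120 day 5 replicate 2 (adjusted p = 0.0622) was left out, nor with every low gene kept in the fit (adjusted p = 0.067). By day 14 the vehicle libraries stood at 77.1 and 70.3 CPM and the AG120 libraries at 17.3 and 10.6 CPM. The log2 fold change there was -2.43 ± 0.49 (adjusted p = 0.00256), a 5.39-fold fall.

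Counts of both genes within a library give the balance without any scaling between libraries. For every 100 Gata2 counts there were 12.3, 13.8 and 13.3 Gata1 counts in vehicle day 5 and 13.1 and 13.8 in vehicle day 14. AG120 libraries had 107.7, 120.6 and 118.8 at day 5 and 208.6 and 473.6 at day 14. The relapse libraries had 0, 2.94, 8.47 and 5.38. All 5 AG120 libraries thus lay above 100, all 5 vehicle libraries between 12 and 14, and all 4 relapse libraries below the lowest vehicle library. The AG120 day 14 values rest on 58 and 53 Gata2 counts.

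**Figure D2:**
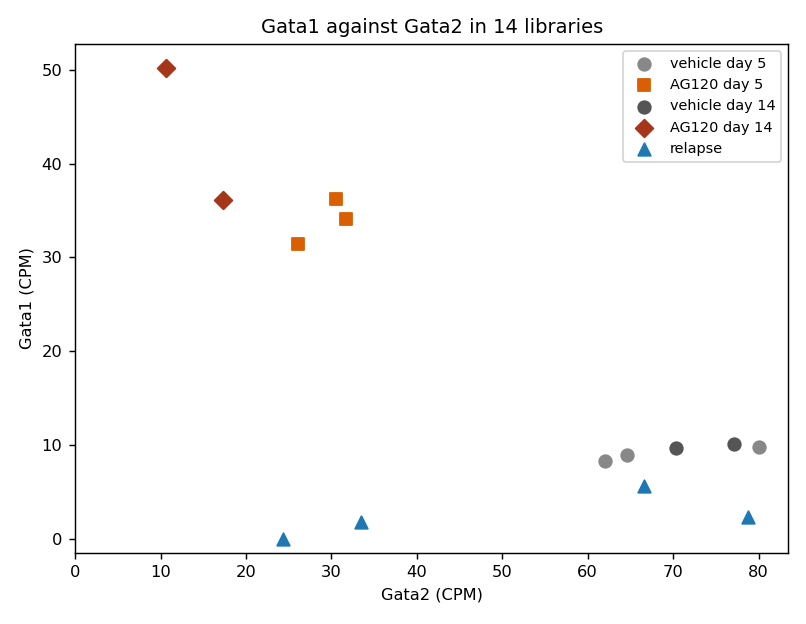
Gata1 (y axis, CPM) against Gata2 (x axis, CPM), 1 point per library, marked by group. Vehicle libraries sit at 62.0 to 80.0 CPM Gata2 and 8.25 to 10.1 CPM Gata1, AG120 libraries at 10.6 to 31.7 CPM Gata2 and 31.4 to 50.2 CPM Gata1, and relapse libraries at 24.4 to 78.8 CPM Gata2 with Gata1 at 5.64 CPM or less.

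Klf1 (chr8:84901928-84905291, plus strand) codes for the zinc finger activator of adult globin and red cell membrane genes, and its promoter window above carries TTATCA. It had the largest change of the 10. It stood at 2.28, 2.1 and 2.31 CPM in vehicle day 5 against 38.9, 41.3 and 40.9 CPM in AG120 day 5, with a log2 fold change of 4.17 ± 0.42 (adjusted p = 6.56e-06), or 17.98-fold. Day 14 gave 4.10 and 2.63 CPM in vehicle against 61.5 and 68.7 CPM in AG120, a log2 fold change of 4.27 ± 0.50 (adjusted p = 2.66e-05). No vehicle library was above 4.10 CPM and no AG120 library below 38.9 CPM.

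Gfi1b (chr2:28609450-28621982, minus strand), the zinc finger repressor that restrains growth of red cell and megakaryocyte precursors, rose on both days. Its levels were 3.417, 3.426 and 3.739 CPM in vehicle day 5 and 15.4, 15.8 and 16.6 CPM in AG120 day 5 (log2 fold change 2.167 ± 0.37, adjusted p = 0.00035). Vehicle day 14 had 5.86 and 4.84 CPM and AG120 day 14 had 18.8 and 22.02 CPM (log2 fold change 1.94 ± 0.45, adjusted p = 0.00379). The groups were apart on both days.

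Next come the subunits of the complex that holds GATA1 on DNA. Tal1 (chr4:115056426-115071755, plus strand) is the helix-loop-helix factor of that complex. It was at 67.8, 55.0 and 58.8 CPM in vehicle day 5 and at 74.2, 80.1 and 83.5 CPM in AG120 day 5, a log2 fold change of 0.39 ± 0.56 (adjusted p = 0.618). At day 14 it was at 52.4 and 50.4 CPM in vehicle and 104.5 and 115.7 CPM in AG120, a log2 fold change of 1.10 ± 0.69 (adjusted p = 0.252). Its AG120 libraries were above the vehicle libraries on both days, yet neither comparison passed in the fit over all 14 libraries. With the libraries of the compared groups alone, the adjusted p was 0.000831 at day 5 and 3.5e-06 at day 14, at log2 fold changes of 0.37 and 1.08. Tal1 varied more among the relapse libraries than 97.7% of the genes tested, and these libraries share the estimate of spread in the fit over all groups.

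Lmo2 (chr2:103957986-103981878, plus strand) bridges TAL1 and GATA1. It was at 33.3, 37.2 and 40.3 CPM in vehicle day 5 and at 59.7, 52.6 and 59.2 CPM in AG120 day 5, and rose by 0.63 ± 0.19 on the log2 scale (adjusted p = 0.013; 0.0567 without vehicle day 5 replicate 1). The day 14 values were 42.2 and 39.1 CPM in vehicle and 56.1 and 62.8 CPM in AG120. That difference, 0.55 ± 0.23 on the log2 scale, did not pass (adjusted p = 0.0738), although it did with the compared groups alone (adjusted p = 0.00781) and without relapse replicate 1, 2 or 3 (adjusted p = 0.0361 to 0.0464). A gene on the opposite strand, 4931422A03Rik, overlaps Lmo2. Whether counting used strand is not given in the sources used here, and 4931422A03Rik had at most 37 counts in a library beside at least 188 for Lmo2.

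Ldb1 (chr19:46031570-46045214, minus strand) codes for the self-associating protein that brings distant enhancers to promoters. Vehicle day 5 libraries had 10.4, 10.6 and 15.4 CPM and AG120 day 5 libraries 24.2, 31.6 and 23.8 CPM, a log2 fold change of 1.12 ± 0.22 (adjusted p = 0.000781). Day 14 gave 14.2 and 13.8 CPM in vehicle and 38.8 and 30.2 CPM in AG120, 1.29 ± 0.27 on the log2 scale (adjusted p = 0.0017). It rose on both days without overlap. Pprc1 overlaps Ldb1 on the opposite strand, with 47 to 135 counts beside 54 to 188 for Ldb1. The overlap, chr19:46044886-46045214, lies at the 5′ end of both genes, while the libraries were read from the 3′ ends of transcripts. Only reads within that stretch could be shared if strand was not used.

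Zfpm1 (chr8:122282141-122337251, plus strand) codes for FOG1, the cofactor that GATA1 needs in red cells and megakaryocytes. Vehicle day 5 libraries had 35.6, 28.0 and 26.8 CPM and AG120 day 5 libraries 55.3, 46.5 and 49.5 CPM, a log2 fold change of 0.75 ± 0.36 that did not pass (adjusted p = 0.127; 4.55e-07 with the compared groups alone). At day 14, vehicle had 32.4 and 26.95 CPM and AG120 87.5 and 67.3 CPM, and the gene rose by 1.38 ± 0.45 on the log2 scale (adjusted p = 0.0345). Leaving out any 1 of the 4 libraries compared ended this call (adjusted p = 0.069 to 0.164), as did fitting without a filter (adjusted p = 0.167). With the compared groups alone it passed, as did all 10 members among 4888 genes called. Gm20388, a gene model on the same strand, spans Zfpm1 and had 113 to 373 counts beside 64 to 363, so that the count of either depends on how shared reads were assigned.

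Nfe2 (chr15:103248212-103258403, minus strand), which codes for the factor of platelet release and globin enhancers, was the second member that fell. It was at 40.9, 36.5 and 38.7 CPM in vehicle day 5 and at 14.9, 14.6 and 16.6 CPM in AG120 day 5, a change of -1.33 ± 0.19 on the log2 scale (adjusted p = 4.36e-05). At day 14 vehicle had 36.9 and 36.2 CPM and AG120 16.1 and 15.8 CPM, a change of -1.20 ± 0.24 (adjusted p = 0.00112). Unlike Gata2, Nfe2 stood at nearly one level in all 5 AG120 libraries, 14.6 to 16.6 CPM.

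Bcl11a (chr11:24078056-24174123, plus strand), the repressor of fetal globin that also acts in lymphoid cells, was at 71.5, 72.1 and 69.2 CPM in vehicle day 5 and at 141.6, 144.5 and 140.5 CPM in AG120 day 5. It rose by 1.00 ± 0.16 on the log2 scale (adjusted p = 0.00013). Day 14 gave 81.5 and 71.6 CPM in vehicle and 150.1 and 123.3 CPM in AG120, a log2 fold change of 0.84 ± 0.20 (adjusted p = 0.00378). The AG120 libraries were above the vehicle libraries on both days. Gm12064 and 4930538E20Rik overlap it on the opposite strand and had at most 13 and 55 counts per library beside at least 283 for Bcl11a.

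**Figure D3:**
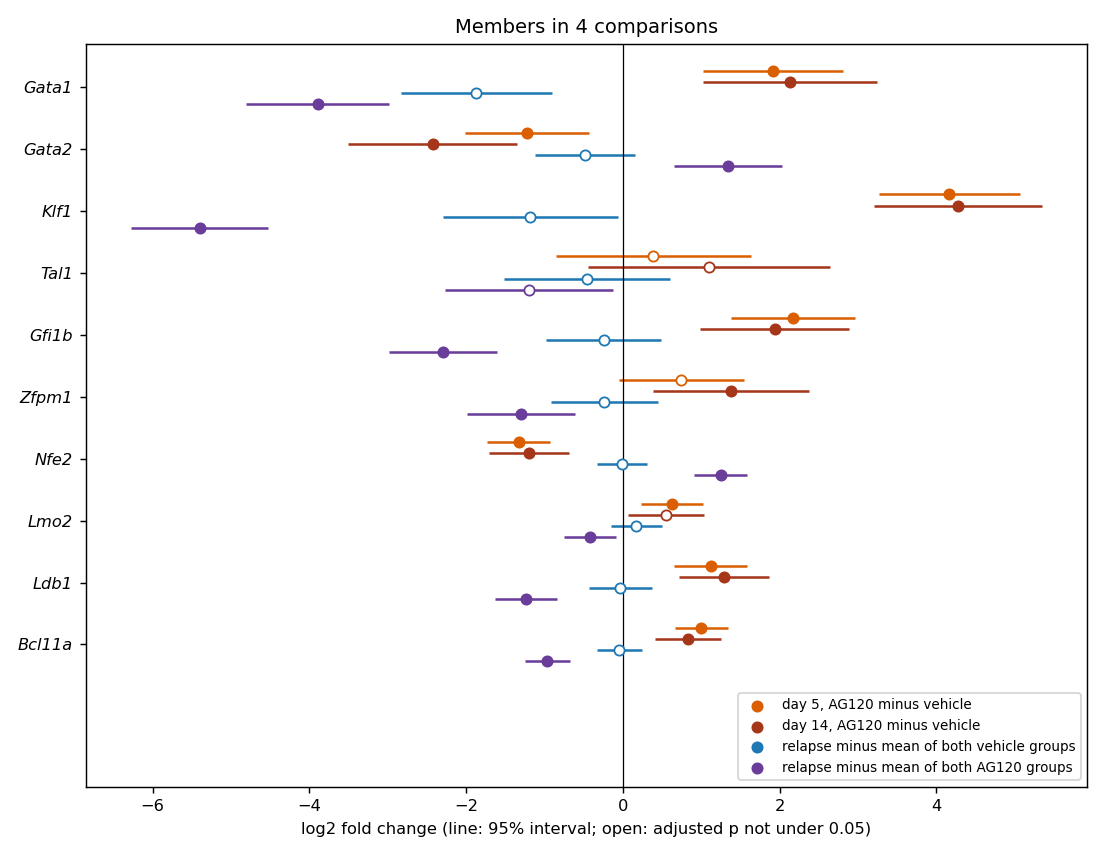
log2 fold change (x axis) of each member (y axis) in 4 comparisons, with 95% intervals as lines; filled points have an adjusted p under 0.05 and open points do not. Both AG120 points lie on one side of 0 for each member, right for 8 and left for Gata2 and Nfe2, and the relapse against vehicle points are open for all 10.

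Whether the response grew from day 5 to day 14 was tested as the difference between the AG120 effects. No member passed in edgeR's test (0 of 10, and 0 at an unadjusted p under 0.05), against 0.934% of all genes; DESeq2 and limma-voom called 0 as well. The widest difference was that of Gata2, -1.20 on the log2 scale with a 95% interval of -2.52 to 0.12 (adjusted p = 0.453). For Klf1 it was 0.11 (-1.41 to 1.63) and for Gata1 0.22 (-1.19 to 1.63), so differences of more than 2-fold in either direction lie within these intervals. For Nfe2 the interval was narrower, -0.52 to 0.78 around 0.13. With only the 4 AG120 and vehicle groups in the fit, Gata2 (-1.21, adjusted p = 0.000433), Tal1 (0.73, adjusted p = 0.00205) and Zfpm1 (0.64, adjusted p = 0.0366) did pass.

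Vehicle libraries of day 14 and day 5 differed in no member by edgeR (0 of 10, also at an unadjusted p under 0.05) and in 0% of all genes, with 574 genes at an unadjusted p under 0.05; DESeq2 and limma-voom also called 0 members. The differences ran from -0.23 (Tal1) to 0.59 (Gfi1b and Klf1) on the log2 scale. The libraries of the 2 days did not overlap for 3 members, against 31.3% of all genes. Gfi1b had 5.86 and 4.84 CPM at day 14 beside 3.417 to 3.739 CPM at day 5, Klf1 4.10 and 2.63 beside 2.1 to 2.31, and Tal1 52.4 and 50.4 beside 55.0 to 67.8.

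Relapse was compared with the mean of both vehicle groups. No vehicle or AG120 group ran beyond 14 days, so relapse and time cannot be told apart in any comparison with relapse. No member passed in edgeR's test (0 of 10, with 2 at an unadjusted p under 0.05), against 0.183% of all genes, and DESeq2 and limma-voom called 0 members. Gata1 was the one member whose 4 relapse libraries did not overlap the 5 vehicle libraries, against 3.95% of all genes. It was at 0, 2.32, 5.64 and 1.80 CPM in relapse replicates 1 to 4, from 0, 13, 41 and 15 counts. A count of 0 in relapse replicate 1 allows up to 3 counts, or 0.567 CPM, where counting error alone is considered. The log2 difference was -1.87 ± 0.44 (unadjusted p = 0.00118, adjusted p = 0.117). It passed without relapse replicate 1 (-1.53, adjusted p = 0.0162) and without relapse replicate 3 (-2.69, adjusted p = 0.00345).

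Klf1 was at 0.378, 0.178, 3.44 and 0.479 CPM in relapse, from 2, 1, 25 and 4 counts. Replicate 3 lay within the vehicle range and the other replicates below it. The log2 difference from vehicle was -1.18 ± 0.51 (adjusted p = 0.404), and without relapse replicate 3 it was -2.85 (adjusted p = 0.000291). Whether the difference of Klf1 from vehicle passed thus turned on 1 library. In that library the red cell genes listed for GATA1 summed to 622 CPM, beside 203.8, 249.6 and 200.1 CPM in replicates 1, 2 and 4 and 203.8 to 301.4 CPM in vehicle. The part of this sum in the Klf1 value was not tested.

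Several other members took different levels in different relapse mice. Tal1 was at 14.4, 72.2, 64.0 and 12.6 CPM in replicates 1 to 4. Zfpm1 was at 12.1, 41.5, 33.6 and 14.5 CPM, and Gata2 at 24.4, 78.8, 66.6 and 33.4 CPM. Replicates 1 and 4 were low and replicates 2 and 3 near the vehicle level for all 3 genes. Gfi1b followed the same order of high and low, at 0.756, 6.59, 4.82 and 2.52 CPM. Lmo2 showed the opposite, at 56.5, 34.0, 31.5 and 52.9 CPM. These sets of replicates are described as they fell and were not compared by a test.

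The SD of log2 CPM over the 4 relapse libraries was 1.34 for Tal1, 1.82 for Gata1, 1.31 for Klf1, 1.19 for Gfi1b, 0.87 for Zfpm1 and 0.80 for Gata2. For each of these genes 89.8% to 99.5% of the genes tested had a smaller SD, and the median gene had 0.32. Counting error is part of the SD of Gata1 and Klf1, which had few counts. Nfe2 (0.43), Lmo2 (0.43), Ldb1 (0.42) and Bcl11a (0.36) were nearer to the median gene. Their relapse libraries spanned 24.9 to 51.1 CPM for Nfe2, 9.35 to 17.8 for Ldb1 and 53.5 to 89.3 for Bcl11a.

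**Figure D4:**
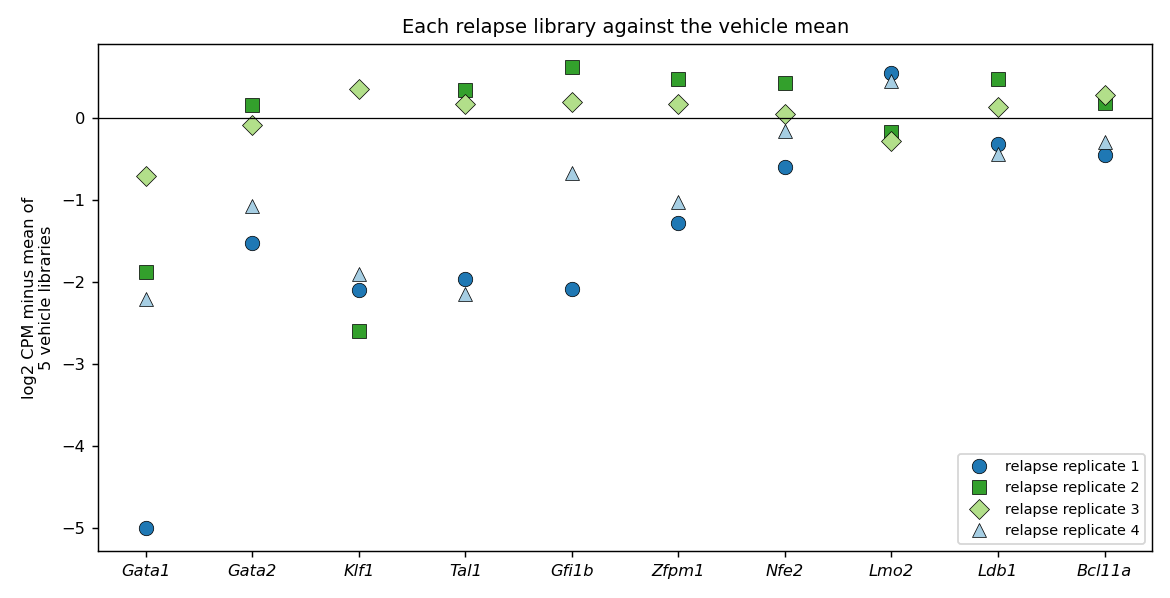
log2 CPM of each relapse library minus the mean of the 5 vehicle libraries (y axis) for each member (x axis), 1 symbol per replicate. Replicates 1 and 4 lie below 0 for 9 members and above it for Lmo2; the lowest Gata1 point, -4.999, comes from a library with 0 counts and depends on the prior count of 2.

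Some markers of other cells were high or low in the same relapse libraries as these members, and others were not. Itgam was at 53.5, 13.9, 16.1 and 35.5 CPM and Kit at 18.9, 50.3, 52.0 and 19.2 CPM in replicates 1 to 4. Megakaryocyte and platelet markers summed to 164, 601, 528.6 and 176 CPM. Itga2b, the platelet integrin gene, had 75.4, 247, 234 and 92.2 CPM. In replicates 1 and 4, where Tal1, Zfpm1 and Gata2 were low, Kit and Itga2b were thus low as well and Itgam was high. Neutrophil markers summed to 474.7, 1255, 239.1 and 411.7 CPM and mast cell and basophil markers to 89.4, 87.8, 71.1 and 86.5 CPM. The list of sorted progenitor markers summed to 378, 357.1, 359.2 and 310.3 CPM. These sums did not separate replicates 1 and 4 from replicates 2 and 3, but they hide opposite moves. Kit and Itgam both belong to the last list. Of the mast cell and basophil markers, Cpa3 was at 19.5, 58.3, 33.4 and 17.9 CPM and Mcpt8 at 6.23, 2.50, 2.34 and 8.03 CPM. The part of these markers in the members' values was not tested.

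Compared with the mean of both AG120 groups, relapse showed the members going the other way. Of the 10, 7 fell (Gata1, Klf1, Gfi1b, Zfpm1, Lmo2, Ldb1 and Bcl11a), 2 rose (Gata2 and Nfe2) and Tal1 did not pass, against 26.1% of all genes that fell and 27.9% that rose. The libraries did not overlap for 8 members, as for 37.2% of all genes. This comparison shares the relapse libraries with the one against vehicle and the AG120 libraries with the comparisons of day 5 and day 14, so it is not independent of them.

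The log2 fold change was -5.40 ± 0.40 for Klf1 (adjusted p = 1.8e-07) and -3.90 ± 0.42 for Gata1 (adjusted p = 9.16e-06). Gfi1b (-2.29 ± 0.32), Zfpm1 (-1.30 ± 0.31), Ldb1 (-1.24 ± 0.19) and Bcl11a (-0.96 ± 0.14) also fell, with adjusted p-values from 1.75e-05 to 0.00429. Gata2 was higher by 1.34 ± 0.32 (adjusted p = 0.0037), with overlap, since its relapse replicate 1, at 24.4 CPM, lay within the AG120 range of 10.6 to 31.7 CPM. Nfe2 was higher by 1.25 ± 0.16 (adjusted p = 6.48e-06) in all 4 libraries. Lmo2 fell by 0.42 ± 0.16 (adjusted p = 0.0317), but did not pass with the compared groups alone (adjusted p = 0.0965), nor without AG120 day 5 replicate 1 or 3, AG120 day 14 replicate 2, or relapse replicate 2 or 3 (adjusted p = 0.0587 to 0.131). Tal1, at -1.20 ± 0.48 (adjusted p = 0.0567), passed by DESeq2 (adjusted p = 0.0328), by limma-voom (adjusted p = 0.0176), and without relapse replicate 2 (adjusted p = 0.0237) or 3 (adjusted p = 0.0354).

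The genes that GATA1 is known to activate in red cells were counted next. Of 28 tested, 15 rose and 3 fell at day 5, and 21 rose and 2 fell at day 14. For this list and those below, 20.1% of all genes rose and 19.3% fell at day 5. The shares of all genes were 16.8% and 17.9% at day 14, and 27.9% and 26.1% in relapse against AG120. Their median log2 fold change was 1.73 at day 5 and 3.20 at day 14. Alas2, Slc4a1 and the globin genes Hbb-bt, Hbb-bs, Hba-a1 and Hba-a2 did not pass at day 5 (adjusted p = 0.427 to 0.687). At day 14 Alas2, Slc4a1 and Hbb-bt rose. Hbb-bs, Hba-a1 and Hba-a2 did not pass then either (log2 fold changes 3.17 to 4.00, adjusted p = 0.0808 to 0.104). Among those that rose at day 5 were Ermap, which codes for a membrane protein of erythroblasts (3.99 ± 1.403 CPM in vehicle and 184.85 ± 13.1 in AG120, SD, n = 3 each), Rhd, a blood group gene (2.25 ± 0.84 and 55.4 ± 8.92 CPM), and Kel, another (0.252 ± 0.224 and 7.30 ± 1.62 CPM). At day 14 the widest rises were those of the membrane skeleton genes Sptb (log2 fold change 5.97 ± 0.96, adjusted p = 0.00057) and Ank1 (5.54 ± 1.10, adjusted p = 0.00333) and of Epb42 (6.202 ± 1.21, adjusted p = 0.00124), which had 2 counts in the vehicle libraries of that day. The genes that fell, Bcl2l1, Btg2 and Xpo7 at day 5 and Bcl2l1 and Xpo7 at day 14, act in survival, growth arrest and nuclear export.

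KLF1 targets followed, with 9 of 16 up and 2 down at day 5 and 12 up and 2 down at day 14 (median log2 fold changes 1.31 and 1.84). Add2, a membrane skeleton gene, rose by 4.16 ± 0.78 at day 5 and 4.97 ± 0.90 at day 14 on the log2 scale, with 1.71 ± 0.0593 CPM in vehicle and 30.9 ± 4.65 CPM in AG120 at day 5. Icam4, a blood group adhesion gene, rose by 2.37 ± 0.32 at day 5, and Dmtn, which codes for dematin, by 2.64 ± 0.85 and 5.05 ± 0.77. Pim1, a survival kinase, fell (-1.31 ± 0.18 at day 5 and -3.15 ± 0.24 at day 14). Xpo7 and Epb42 stand in this list and in the previous one.

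Genes listed as active with GATA2 and repressed by GATA1 mostly went the way of Gata2. Of 14 tested, 10 fell and 3 rose at day 5, and 12 fell and 1 rose at day 14, with median log2 fold changes of -1.58 and -2.21. Cd34, a stem cell surface protein, was at 138.8 ± 11.2 CPM in vehicle and 10.1 ± 2.13 CPM in AG120 at day 5 (log2 fold change -3.78 ± 0.17, adjusted p = 5.61e-10). Meis1, a homeobox factor of leukemia stem cells, fell, with log2 fold changes of -3.15 ± 0.43 at day 5 and -4.17 ± 0.60 at day 14, as did Erg, an ETS factor (-2.54 ± 0.36 and -5.45 ± 0.70). Samd14, which has a GATA-bound enhancer, rose by 4.34 ± 0.52 and 4.30 ± 0.64. Myc (1.405 ± 0.22) and Myb (0.50 ± 0.12), factors of cell growth and progenitor state, rose at day 5. In relapse against AG120, 11 of the 14 rose and 1 fell.

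For partners and cofactors of the TAL1, LMO2, LDB1 and GATA1 complex the shares that passed were near those of all genes. Of 35 tested, 7 rose and 9 fell at day 5 (20.1% and 19.3% of all genes), and 6 rose and 6 fell at day 14 (16.8% and 17.9% of all genes), with medians of -0.019 and 0.14 on the log2 scale. Lyl1, the closest relative of Tal1, fell from 101.9 ± 8.46 CPM in vehicle to 37.1 ± 1.66 CPM at day 5 (log2 fold change -1.46 ± 0.14) and by 1.25 ± 0.18 at day 14. Runx1, which shares many sites with this complex, fell as well (-0.93 ± 0.20 and -1.80 ± 0.26). Bach1, a heme-sensing repressor, fell by 1.06 ± 0.24 at day 5, and Lmo4, a relative of Lmo2 that competes for LDB1, fell by 2.65 ± 0.22 at day 14. Mbd2, a subunit of the NuRD repressor that FOG1 recruits, rose by 1.17 ± 0.13 at day 5 and 1.15 ± 0.17 at day 14. Ssbp3, which stabilises LDB1, rose by 0.88 ± 0.23 and Mta1 by 0.70 ± 0.15 at day 5, while Mafk, a partner of NFE2 (0.99 ± 0.29), and Zbtb7a, a second repressor of fetal globin (0.94 ± 0.14), were among those that rose at day 14.

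Among relatives of the members by protein family, 6 of 18 tested rose and 5 fell at day 5 (20.1% and 19.3% of all genes). At day 14, 4 rose and 4 fell, and the share in each direction was near that of all genes (16.8% and 17.9%). Klf9 rose by 3.78 ± 0.62 and 3.67 ± 0.70 on the log2 scale. Klf3, a repressor that KLF1 itself activates in the textbook account, rose at day 14 from 9.58 ± 1.11 to 44.3 ± 0.181 CPM. Klf11 and Klf4 rose at day 5 by 1.66 ± 0.39 and 1.92 ± 0.65, and Klf16 at day 14 by 0.97 ± 0.21. Klf6 also fell (-0.87 ± 0.33 and -1.34 ± 0.43), and Lmo1 had log2 fold changes of -2.84 ± 0.70 and -2.99 ± 1.01, from 3.17 and 2.98 CPM in vehicle.

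Factors of granulocyte and monocyte fate fell in part. Of 11 tested, 5 fell and 2 rose at day 5 (Myb and Klf4 rose), and 4 fell and 7 did not pass at day 14. Spi1, whose protein PU.1 opposes GATA1 in the textbook account, was at 30.6 ± 4.14 CPM in vehicle and 6.23 ± 0.833 CPM in AG120 at day 5, and at 40.7 ± 1.24 and 4.09 ± 0.722 CPM at day 14. Its log2 fold changes were -2.29 ± 0.23 (adjusted p = 1.22e-06) and -3.28 ± 0.32 (adjusted p = 9.55e-07). Fli1, an ETS factor of megakaryocytes, had log2 fold changes of -1.98 ± 0.18 and -2.75 ± 0.25. Irf8, a monocyte factor, fell at day 5 (-3.77 ± 0.68), and Cebpa, a granulocyte factor, at day 14 (-2.72 ± 0.34). In relapse against AG120, 6 of the 11 rose.

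**Figure D5:**
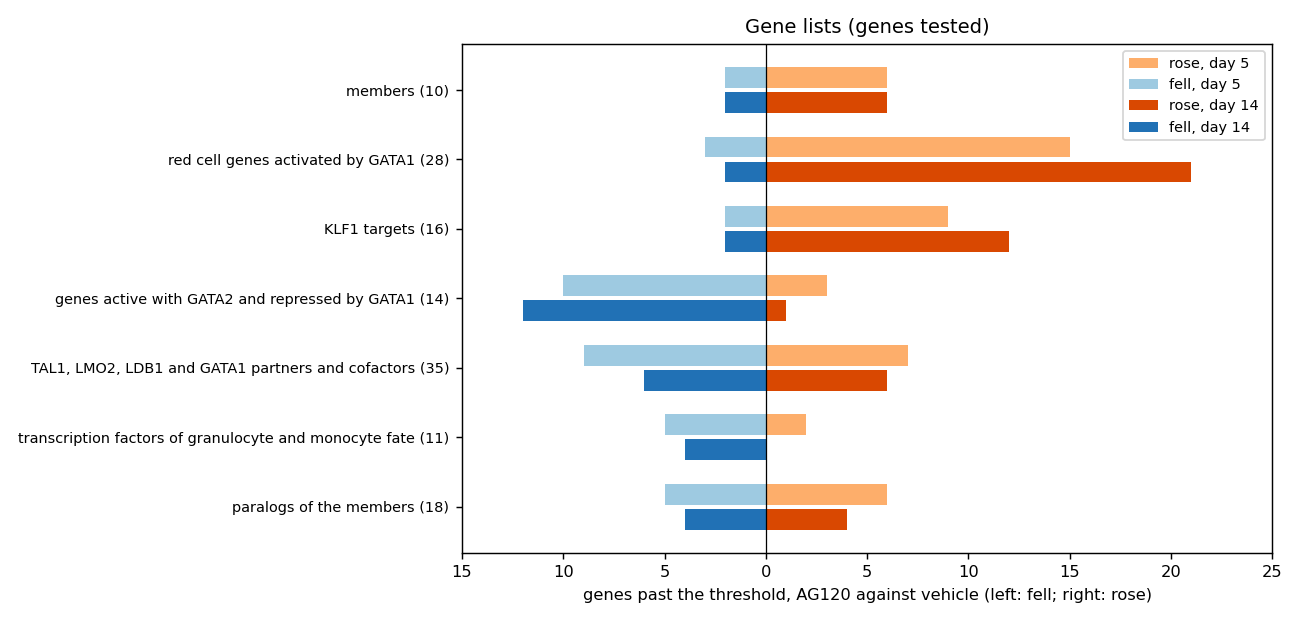
Genes that rose (right) and fell (left) under AG120 at day 5 (pale) and day 14 (dark) in each list (y axis, genes tested in parentheses; x axis, number of genes past the threshold). Red cell genes and KLF1 targets lie mostly to the right, genes active with GATA2 mostly to the left, and partners and cofactors on both sides.

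Markers of other cells were read beside these lists, since several members also act in megakaryocytes and mast cells. Mast cell and basophil markers summed to 113 to 145 CPM in vehicle, 71.2 to 75.6 in AG120 day 5 and 36.8 to 37.3 in AG120 day 14. Of 8 tested, 1 rose and 3 fell at day 5, and 1 rose and 5 fell at day 14. Cpa3, the mast cell carboxypeptidase, fell (-1.48 ± 0.38 and -4.29 ± 0.61 on the log2 scale), whereas Il1rl1, the IL-33 receptor, rose by 2.83 ± 0.28 and 2.33 ± 0.35. Gzmb had 0 counts in both AG120 libraries of day 14 and was at least 2.94-fold lower there, with 3 counts per library as the floor. The list's median log2 fold change at day 14 was -2.22, and -1.94 with Gzmb at that bound. The mast cell protease genes Tpsab1 and Cma1 were at 0 in all 14 libraries.

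Megakaryocyte and platelet markers summed to 419 to 528 CPM in vehicle, 75.7 to 99.2 in AG120 day 5 and 146.5 to 146.6 in AG120 day 14. Of 11 tested, 5 fell and 6 did not pass at day 5, and 1 rose and 2 fell at day 14. Itga2b (log2 fold change -2.40 ± 0.55) and Plek, a platelet kinase substrate (-2.46 ± 0.59), fell at day 14, and Vwf, the clotting factor carrier, rose (3.08 ± 0.89). Plek (-3.26 ± 0.50) and Pf4, a platelet chemokine gene (-3.01 ± 0.73), fell at day 5. Tubb1, the platelet tubulin gene, was at 0 throughout.

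Neutrophil markers summed to 117 to 203 CPM in AG120 day 5 and 550 to 743 in vehicle day 5, but to 1282 to 1675 in AG120 day 14 and 931 to 1148 in vehicle day 14. Of 8 tested, 2 fell at day 5, S100a8 and S100a9, which code for a calcium-binding pair of neutrophils. At day 14 none passed, and S100a8 was at 572 ± 87.5 CPM in vehicle and 737 ± 183 CPM in AG120 (adjusted p = 0.616). Macrophage markers summed to 12.9 to 15.6 CPM in AG120 day 5, 28.4 to 60.5 in AG120 day 14 and 25.9 to 32.7 in vehicle, with 1 of 6 down at day 5 and 3 up (C1qa, Cd163 and Vcam1) and 1 down (Cd68) at day 14; Vsig4 was at 0 throughout. Cd79b was the one B cell marker tested, at 2.07 ± 0.17 CPM in vehicle and 0.574 ± 0.427 CPM in AG120 at day 5, and no T, NK, endothelial or stromal marker had enough counts to be tested. The list of sorted progenitor markers holds Cd34, Ptprc (which codes for CD45), Kit, and also Itgam, whose protein CD11b the sort excluded. Of these, Cd34, Ptprc and Itgam fell at day 5 and Cd34, Ptprc and Kit at day 14. Itgam is thus not a marker of the cells kept. Ptprc was at 103.2 ± 9.94 CPM in vehicle and 21.97 ± 0.947 CPM in AG120 at day 5. The part of these shifts in the members' values was not tested.

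The genes most like each member were found by the root mean square (RMS) difference of mean-centred log2 CPM over the 14 libraries. For Klf1 they were Samd14 (RMS 0.38), Aqp1, the red cell water channel gene (0.43), and Car1, a carbonic anhydrase gene of red cells (0.45). For Gata1 they were Epdr1 (0.72), Epor, the erythropoietin receptor gene (0.78), and Icam4 (0.84). Gata2 was nearest to Dach1 (0.21), Fyn (0.29) and Gm10478 (0.30), and Tal1 to Gm28635 (0.30), Zfpm1 (0.35) and Selenbp1 (0.35). Gfi1b lay nearest to Mtss1, Mgst3 and Atp6v0a1 (0.37 to 0.40) and Zfpm1 to Narf, Arvcf and Slc14a1, the red cell urea transporter gene (0.22 to 0.27).

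Nfe2 was nearest to Adipor2, Gcnt1 and Zfand6 (0.13 to 0.15), Lmo2 to Sf3b5, Eme1 and Rps27l (0.11), Ldb1 to Eng, Stx11 and Lgals9 (0.18 to 0.20), and Bcl11a to Usp24, Vps13d and Ktn1 (0.11 to 0.15). Within the set, the closest pairs were Ldb1 with Bcl11a (0.25), Tal1 with Zfpm1 (0.35), and Zfpm1 with Ldb1 and with Bcl11a (both 0.37). The member nearest to Gata2 was Nfe2 (0.48), the other one that fell under AG120. These distances describe the 14 libraries, which share the groups.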

How the data were processed

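Per the labels' protocols, RNA of cells sorted from 14 mice was sequenced with the QuantSeq 3′ kit, and each library is 1 mouse. The single deposited table holds raw counts per Ensembl gene, which carry no normalization. Per the submitters' processing notes the tools were HISAT2 2.1.0, featureCounts of Subread 1.6.3, cutadapt 1.14, bcl2fastq 2.17.1.14, R 3.6.2, edgeR 3.28.1 and limma 3.42.2, on mm10. How strand and reads with several matches were handled is not given in the sources used here. GENCODE M21 gave symbols and positions (GRCm38), and named 52489 of 52636 identifiers; 22670 had no count.

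From these counts, genes were filtered with filterByExpr (minimum count 10), scaled by TMM (factors 0.672 to 1.33) and fitted with edgeR 4.0.16 (R 4.3.3, quasi-likelihood, robust) over all 14 libraries with 1 coefficient per group, 9 residual degrees of freedom and a common dispersion of 0.0291. P-values were adjusted by Benjamini-Hochberg over 11994 genes, threshold 0.05, never over the members. log2 CPM uses a prior count of 2. Alternatives were limma-voom (limma 3.58.1), DESeq2 1.42.0, its size factors, ribosomal RNA models left out, no filter, the compared groups alone, the replicate number as a block and each library left out. The method was also run on simulated counts with the same dispersion for every gene and group. Such counts lack the uneven spread seen in relapse, and no result here rests on them. No pair of libraries within a group agreed within sampling noise (smallest chi-square per degree of freedom 1.88 over 14 pairs).

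Named genes were the 10 members, up to 3 per direction and day from each list by size of change among those that passed (or the 2 most abundant where none did), and the 3 nearest patterns per member. Alas2, Slc4a1, the globin genes and Mcpt8 were named in addition. The members and lists were chosen with earlier results of these data known. Ahsp had no identifier of that symbol. No protein sequence is shown, and 1 gene that the rule names is not reported here.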

Additional observations from a re-analysis of the deposited data

Results flagged for a closer look

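In 24 sets of 4 relapse values in CPM, 3 had a highest or lowest library far from the others. The rule's rate of about 1 in 20 by chance holds for independent, normally distributed values. These sets share the same 4 libraries and partly the same genes, and CPM was not put on a log scale. How many sets chance would flag here is thus not known. Klf1 stood at 3.44 CPM in relapse replicate 3. The summed CPM of red cell genes activated by GATA1 was 622 and the summed CPM of mast cell and basophil markers was 71.1 in the same library.

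The AG120 effect differed between the days for 5 of the named genes of the lists, and for 0.934% of all genes. The test was that of the day 14 effect minus the day 5 effect (edgeR's quasi-likelihood test, Benjamini-Hochberg over all genes). These genes had been named for the size of their change at day 5 or day 14, so their count cannot be read against that share. In the whole lists, 1 red cell gene passed with a positive and 1 with a negative difference, and 2 KLF1 targets with each. The differences on the log2 scale were -1.78 for Lmo4 (adjusted p = 0.00664), -1.20 for Myb (adjusted p = 0.00664), -1.74 for Myc (adjusted p = 0.0272), -1.83 for Pim1 (adjusted p = 0.00774) and -1.11 for Xpo7 (adjusted p = 0.0137).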

How the results depend on the processing

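Over 60 member results and 21 alternatives, 1205 of 1260 values kept their direction and their side of the threshold. Depth limits Gata1 and Klf1 in relapse, where counts were 0 to 41, and groups of 2 limit day 14. The cause of the changes was not tested unless fewer libraries or genes were fitted.

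Genes called in the difference between the days numbered 112, but 374 with no filter, 187 by DESeq2, 30 by limma-voom, 869 with the compared groups alone (3 members) and 13 to 215 with 1 library left out. For relapse against vehicle 22 became 267 with no filter, 120 by DESeq2, 7 with the compared groups alone and 8 to 117 with 1 library left out (0 to 2 members). For vehicle day 14 against day 5, 0 became 33 with no filter, 236 with the compared groups alone and 0 to 2 with 1 library left out. At day 14, 4159 ranged from 2752 (without vehicle day 14 replicate 2) to 4605.

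Among member results, only log2 differences that had not passed changed sign. With 1 library left out, relapse against vehicle ran from -0.17 to 0.070 for Bcl11a, -0.60 to 0.052 for Gfi1b, -0.20 to 0.10 for Ldb1 and -0.18 to 0.13 for Nfe2. The difference between the days ran from -0.056 to 0.43 for Gata1, -0.19 to 0.45 for Klf1 and -0.041 to 0.34 for Ldb1, and vehicle day 14 against day 5 from -0.16 to 0.11 for Zfpm1. Nfe2 in relapse against vehicle was 0.0034 with DESeq2's size factors and by DESeq2.

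Replicate numbers gave little sign of pairing: over 23 pairs of the same number the correlation of deviations was -0.207 to 0.109, over 0.1 in 2. The pairs share libraries and pairs of unlike numbers were not examined, so this check cannot show that no pairing exists. With the number as a block, relapse against vehicle turned to 0.010 for Bcl11a, 0.079 for Ldb1 and 0.0047 for Nfe2, and 4677 genes were called at day 5 and 4129 at day 14; the number of members called was the same in all 6 comparisons.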
